A study of Homo sapiens with 6 samples.

Results

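Expression of the DDX and DHX genes, which encode the RNA helicases named after their DEAD and DEAH sequence motifs, was compared between control RKO cells (Vector) and RKO cells overexpressing the lncRNA LOC101927668 (LOC_OE). The genes were taken by name: every protein-coding gene whose symbol begins with DDX or DHX followed by a digit. Of 58735 genes in the deposited table, 55 met this rule, 39 DDX and 16 DHX genes. RKO is an established human colorectal carcinoma line. In LOC_OE cells the full-length LOC101927668 transcript had been stably introduced from a lentiviral plenti6 plasmid under puromycin selection, and Vector cells were the control for this step. The design describes the 3 libraries of each group as biological replicates, and whether they came from separately infected cell populations is not given in the sources used here, so that p-values measure the spread between these libraries.

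DExD/H-box proteins bind RNA through a pair of RecA-like domains and use ATP to open short duplexes or to strip proteins from RNA. DEAD-box members usually act locally on a duplex, whereas many DEAH-box members move along a strand, and several are switched on by partners that carry a G-patch. Between them these enzymes serve nearly every step in the life of an RNA, from transcription and splicing to export, translation, decay and the building of ribosomes, and a few recognise viral RNA.

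The RNA was measured as FPKM, fragments scaled by exon length and by a divisor for each library. Fold changes were fitted with limma on log2(FPKM + 1), a scale that understates changes of low genes. Each divisor followed a size factor, the median over genes of reads relative to their geometric mean over libraries, rather than the library's own total. LOC_OE replicate 1, with 18410231 reads on genes, was divided as 1.60e+07 reads, and Vector replicate 1, with 17837954, as 1.88e+07. The equal sum of FPKM used below replaces this scaling. Libraries held between 15008842 and 18410231 reads on genes. LOC101927668 itself was covered by at most 1 read in any Vector library and by 231 to 276 in LOC_OE libraries. LOC_OE replicate 1 stood apart from the other LOC_OE libraries, with a Pearson correlation across genes of 0.967 and 0.962 to them, whereas the pair itself and the Vector pairs were at 0.982 to 0.983, so values without it are given below. Of 7 colorectal epithelial markers, EPCAM, KRT8, KRT18 and CDX2 were present at 3.97 FPKM or more in every library, whereas CDH1 was at 0 and KRT19 and VIL1 were at or near 0. The summed level of the 7 was 39.1 to 41.3 FPKM in Vector and 48.4 to 89.6 in LOC_OE libraries, most of the latter value being KRT18 in LOC_OE replicate 1. The summed markers of fibroblasts (3 genes) and endothelium (3 genes) did not exceed 0.142 FPKM in any library, with COL1A2 and DCN at 0. The 3 leukocyte markers summed to 0.792 to 1.21 FPKM in Vector and 0.187 to 0.713 in LOC_OE, nearly all of it CD68, with CD3E at 0, and the part of other cell types in the results was not tested. In bulk RNA, a change in a share of the cells and a change of RNA within each cell cannot be told apart.

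As a group, the helicase genes lay above the Vector level in LOC_OE cells, with 44 of 49 log2 fold changes above 0, or 28 of 49 once all libraries were set to an equal sum of FPKM. The median of all genes was -0.18 at that scaling and 0.019 before. Above the median of all genes lay 40 of 49 helicases at an equal sum and 42 of 49 before. Of the 55 genes, 49 passed the filter of at least 0.5 FPKM in at least 3 libraries and were tested (34 DDX and 15 DHX). With an adjusted p under 0.05 in limma over 16061 genes, 8 rose (DDX21, DDX28, DDX18, DHX33, DHX29, DDX5, DHX36 and DDX6) and 0 fell, whereas 20 of the 49 had an unadjusted p under 0.05. The 8 were 16.3% of the 49, against 20.4% of all genes tested that passed in either direction, 10.7% that rose and 9.74% that fell. At an equal sum of FPKM, 4 rose (DDX18, DDX21, DDX28 and DHX33) and 3 fell (DDX24, DDX41 and DHX16). The shares of all genes that rose or fell at an equal sum were not computed, here or for the lists below. With a fold change of at least 1.5 as well, DDX21 and DDX28 remained (4.08% of the 49), against 4.63% of all genes that rose and 5.58% that fell by this measure. Neither passed both thresholds at an equal sum of FPKM, without LOC_OE replicate 1 or without any 1 Vector library.

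The fold changes were small. The 44 genes above 0 were 89.8% of the 49, against 52.0% of all genes tested, and the log2 fold changes had a range from -0.19 to 0.72 and a median of 0.28, against 0.019 for all genes tested. At an equal sum of FPKM the median was 0.062, while the median of all genes moved to -0.18. Relative to the median of all genes, the median of the helicases was then 0.24 higher, against 0.26 higher before. The 3 LOC_OE libraries all lay above the 3 Vector libraries for 27 genes (55.1%, against 24.4% of all genes), and 28 genes had groups that did not overlap in either direction (57.1%, against 45.3%). The genes together took 0.561% to 0.575% of the reads on genes in Vector and 0.674%, 0.598% and 0.597% in LOC_OE replicates 1, 2 and 3.

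**Figure D1:**
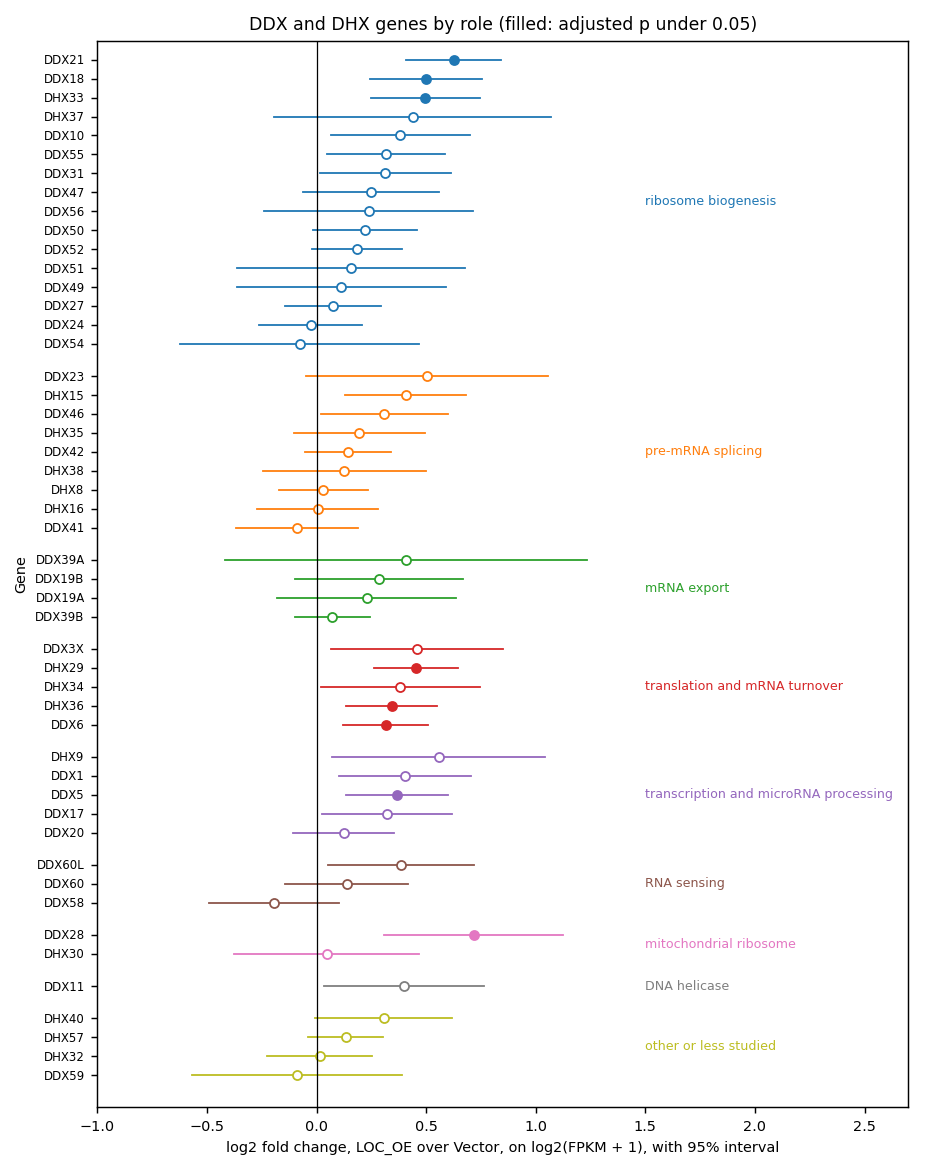
Log2 fold change (x axis, LOC_OE over Vector on the log2(FPKM + 1) scale) with its 95% interval for the 49 genes tested, grouped by role on the y axis, filled where the adjusted p of limma was under 0.05. Of the 49 points, 44 lie above 0, and the 8 filled ones lie between 0.32 and 0.72. At an equal sum of FPKM 28 lie above 0, and 40 lie above the median of all genes.

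The number of genes that passed depended on which libraries were used. Without LOC_OE replicate 1, 18 of the 49 rose (36.7%, against 19.8% of all genes then tested) and 2 fell, DDX41 and DDX54 (4.08%, against 16.8%), and the median was 0.19. The 8 genes named above were all among these 18. The others of the 18, and DDX41 and DDX54, passed in no other fit that left out 1 library. In such fits the limma adjusted p reached 0.178 for DHX15, 0.241 for DDX3X and 0.361 for DDX50. LOC_OE replicate 1 was singled out because it stood apart in these same data, so adjusted p-values without it are descriptive. Without LOC_OE replicate 2 the count was 2 (DDX21 and DHX29), and without LOC_OE replicate 3 it was 6. Without any 1 of the Vector libraries 0 genes passed the adjusted p of limma, although 10 or 11 had an unadjusted p under 0.05. Shares of all genes were computed only for the fit without LOC_OE replicate 1. Whether the other fits lost calls among all genes alike was not tested.

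Promoter sequence is shown for DDX21 and DHX36, a DDX and a DHX gene that rose, as the stretch just upstream of their annotated starts. RefSeq windows (GRCh38.p14) of 250 bases before each start were found for 50 of the 55 genes, 67 windows in all, and not for DDX18, DDX49, DDX52, DHX33 and DHX58. The printed stretches lie outside annotated exons, chr10:68955920-68956127 on the plus strand for DDX21 and chr3:154324498-154324737 on the minus strand for DHX36. Capitals mark the ETS core CCGGAAG in DDX21 and the inverted CCAAT box ATTGG in DHX36.
DDX21: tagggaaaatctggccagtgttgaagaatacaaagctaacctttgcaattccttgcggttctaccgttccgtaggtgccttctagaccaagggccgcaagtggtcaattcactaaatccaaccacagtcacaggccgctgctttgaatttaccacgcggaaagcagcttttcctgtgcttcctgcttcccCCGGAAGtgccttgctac
DHX36: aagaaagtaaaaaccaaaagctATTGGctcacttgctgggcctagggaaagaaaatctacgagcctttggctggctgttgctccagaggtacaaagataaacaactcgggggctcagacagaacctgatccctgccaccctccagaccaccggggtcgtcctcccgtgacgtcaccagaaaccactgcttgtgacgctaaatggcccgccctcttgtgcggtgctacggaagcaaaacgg
The ETS core, searched as CCGGAAG on both strands, was present in 20 of the 67 helicase windows (29.9%), against 10.7% of 22199 windows of protein-coding genes and 8.52% of all 35116 windows. Windows of coding genes were taken whether or not the gene was expressed. Of 6 helicase genes that rose and had a window, 2 held the ETS core, DDX21 and DDX5. The E-box CACGTG was in 13.4% of the helicase windows against 7.37% of the coding ones, the CCAAT box in either orientation in 41.8% against 32.7%, and TATAAA in 5.97% against 9.0%. None of these letter strings overlaps another in the stretches shown. The median GC content of the helicase windows was 60.4%, against 58.0% of all windows. The motifs were chosen with results of these data known, and a match describes the letters in a window, not binding.

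Ribosome biogenesis is the largest role among these genes, with 16 members, all of which were tested. Of these, 3 rose, 0 fell, 14 had a log2 fold change above 0 and the median was 0.24, whereas at an equal sum of FPKM 8 were above 0, the same 3 rose and DDX24 fell. The 3 were 18.8% of the 16, against 10.7% of all genes that rose, and the 14 were 87.5%, against 52.0% of all genes above 0. DDX21 (ENSG00000165732, chromosome 10, 68956128 to 68985073 on GRCh38), a nucleolar helicase that acts in rRNA transcription and processing, had 55.5, 54.3 and 58.8 FPKM in the Vector libraries and 94.4, 86.9 and 80.8 in the LOC_OE libraries. Every LOC_OE library lay above every Vector library, and the spread within the groups was small beside the gap between them. Its mean level was 56.2 ± 2.33 FPKM in Vector and 87.4 ± 6.86 in LOC_OE (SD, n = 3 each), and the log2 fold change in limma was 0.62 (SE 0.091, adjusted p = 0.00960). Without LOC_OE replicate 1 it was 0.57, and over the fits that left out 1 library the adjusted p reached at most 0.0670.

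DDX18, which acts in the assembly of the large ribosomal subunit, was measured at 15.9, 14.9 and 15.7 FPKM in Vector and 25.8, 21.1 and 20.4 in LOC_OE libraries. Its log2 fold change was 0.50 (SE 0.11, limma adjusted p = 0.0243). DHX33, which has been linked to rDNA transcription, was at 18.5, 17.0 and 16.4 FPKM in Vector and at 28.0, 23.7 and 22.8 in LOC_OE libraries. For both genes the groups did not overlap and LOC_OE replicate 1 was the highest library. The log2 fold change of DHX33 was 0.50 (SE 0.10, limma adjusted p = 0.0229).

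The other 13 biogenesis helicases did not pass the test. DDX50, the nucleolar paralog of DDX21, had 24.3, 24.1 and 24.6 FPKM in Vector and 25.0, 30.2 and 30.7 in LOC_OE libraries, so that LOC_OE replicate 1 was the lowest of its group. Its log2 fold change was 0.22 (limma adjusted p = 0.163), and 0.31 without LOC_OE replicate 1 (adjusted p = 0.00373). DHX37, which acts on the small-subunit processome, had 7.68, 7.44 and 7.29 FPKM in Vector and 16.9, 8.76 and 7.66 in LOC_OE libraries. Here LOC_OE replicate 1 stood far above the other 5 libraries, and the third LOC_OE library fell within the Vector range. The log2 fold change of DHX37 was 0.44 (limma adjusted p = 0.279), and 0.12 without that library. DDX54 was at 24.2, 25.7 and 23.9 FPKM in Vector and at 34.2, 20.9 and 17.7 in LOC_OE, above the Vector range in 1 library and below it in the others. Its log2 fold change was -0.077 (limma adjusted p = 0.835) with all libraries and -0.34 without LOC_OE replicate 1 (adjusted p = 0.0209). DDX10, DDX55, DDX31 and DDX52 each had groups that did not overlap, with log2 fold changes of 0.38, 0.32, 0.31 and 0.19 and limma adjusted p-values of 0.0891, 0.0935, 0.122 and 0.175. DDX56, DDX51, DDX49, DDX27 and DDX24 overlapped between groups, with log2 fold changes from -0.027 to 0.24. DDX47 rested on 30 to 67 reads a library and shares 36.5% of its exon length with APOLD1, so its level is uncertain.

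In the mitochondrial ribosome, DDX28 had the largest log2 fold change of the 49 genes with all libraries, and DDX21 had the largest without LOC_OE replicate 1. DDX28 (ENSG00000182810, chromosome 16, 68021274 to 68023442), which takes part in assembly of the large mitochondrial subunit, had 13.5, 11.1 and 11.1 FPKM in Vector and 26.0, 17.7 and 17.7 in LOC_OE libraries. The groups did not overlap, and LOC_OE replicate 1 lay well above the other LOC_OE libraries. Its mean level was 11.9 ± 1.42 FPKM in Vector and 20.5 ± 4.83 in LOC_OE (SD, n = 3 each), with a log2 fold change of 0.72 (SE 0.17, limma adjusted p = 0.0320), and of 0.54 without LOC_OE replicate 1 (adjusted p = 0.00851). Of its exon length, 22.5% overlaps DUS2 on the opposite strand, and whether reads were counted by strand is not given in the sources used here. DHX30, which also serves the mitochondrial ribosome, had 24.2, 22.4 and 21.3 FPKM in Vector and 31.2, 20.6 and 19.9 in LOC_OE libraries, with a log2 fold change of 0.046 (limma adjusted p = 0.874).

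Of 6 helicases of translation and mRNA turnover, 5 were tested, and in all 5 the groups did not overlap, with LOC_OE the higher (24.4% of all genes tested). Of the 5, 3 rose, against 10.7% of all genes. DHX29, which helps the small ribosomal subunit scan structured mRNA leaders, had 10.6, 9.92 and 11.4 FPKM in Vector and 14.7, 15.0 and 15.1 in LOC_OE libraries. Its LOC_OE libraries lay close together, and LOC_OE replicate 1 was the lowest of them. The log2 fold change was 0.45 (SE 0.080, limma adjusted p = 0.0150) with all libraries and 0.46 without LOC_OE replicate 1. DDX6, which represses translation and promotes decapping in P-bodies, had 13.6, 12.8 and 14.8 FPKM in Vector and 17.4, 17.2 and 17.3 in LOC_OE libraries, with a log2 fold change of 0.32 (SE 0.080, limma adjusted p = 0.0393). DHX36, which unwinds G-quadruplexes and whose promoter is printed above, had 5.72, 5.20 and 6.25 FPKM in Vector and 7.58, 7.66 and 7.29 in LOC_OE libraries, with a log2 fold change of 0.34 (SE 0.087, limma adjusted p = 0.0387). For DDX6 and DHX36, as for DHX29, the 3 LOC_OE libraries were close together and the difference did not rest on replicate 1. Even so, in fits that left out 1 library the limma adjusted p reached 0.178 for DDX6, 0.159 for DHX36 and 0.0878 for DHX29. At an equal sum of FPKM, none of these 3 genes passed, with 5 of 5 genes of the role still above 0.

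DDX3X, a helicase of translation initiation, had 22.1, 21.1 and 21.5 FPKM in Vector and 39.2, 26.7 and 25.7 in LOC_OE libraries. All LOC_OE libraries were above all Vector libraries, but replicate 1 widened the spread. The log2 fold change was 0.46 (SE 0.16, limma adjusted p = 0.0950), and 0.27 without that library (adjusted p = 0.00800). DHX34, which takes part in nonsense-mediated decay, had a log2 fold change of 0.38 (limma adjusted p = 0.12).

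Among 5 helicases of transcription and microRNA processing, 1 rose (20.0%, against 10.7% of all genes). DDX5, a transcriptional coactivator and cofactor of DROSHA, had the highest mean level of the helicase genes, with 73.4, 71.6 and 73.2 FPKM in Vector and 105.6, 89.9 and 88.0 in LOC_OE libraries. The groups did not overlap, and LOC_OE replicate 1 was the highest library. For DDX5 the log2 fold change was 0.37 (SE 0.097, limma adjusted p = 0.0423). This call was lost at an equal sum of FPKM (limma adjusted p = 0.238), without the filter and with the replicate block (0.0667 in both). In limma fits that left out 1 library, the adjusted p reached 0.168, and DDX5 passed only without LOC_OE replicate 1. DDX17, its close paralog, had 35.7, 35.6 and 36.5 FPKM in Vector and 37.7, 47.8 and 51.2 in LOC_OE libraries. Unlike DDX5, DDX17 was lowest in LOC_OE replicate 1 among the LOC_OE libraries. The log2 fold change of DDX17 was 0.32 (limma adjusted p = 0.112), and 0.45 without that library (adjusted p = 0.00210).

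DHX9, also called RNA helicase A, had 52.9, 48.8 and 51.8 FPKM in Vector and 105.9, 65.5 and 62.4 in LOC_OE libraries. The groups did not overlap, yet LOC_OE replicate 1 lay far above its fellow libraries. The log2 fold change was 0.56 (SE 0.20, 95% interval 0.07 to 1.04, limma adjusted p = 0.10), and 0.32 without LOC_OE replicate 1 (adjusted p = 0.00786). Over the fits that left out 1 library the limma adjusted p of DHX9 reached 0.253. DDX1, a component of the tRNA ligase complex, had 27.6, 27.5 and 27.5 FPKM in Vector and 44.1, 35.0 and 32.1 in LOC_OE libraries. Its Vector libraries were nearly identical and all below the LOC_OE libraries, and its log2 fold change was 0.40 (limma adjusted p = 0.0659, and 0.0446 with voom on the reads). DDX20 of the SMN complex had a log2 fold change of 0.12 (limma adjusted p = 0.396). DDX5, DDX21, DHX9, DDX17 and DDX1 had the highest mean FPKM over all libraries, at 83.6, 71.8, 64.6, 40.8 and 32.3.

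**Figure D2:**
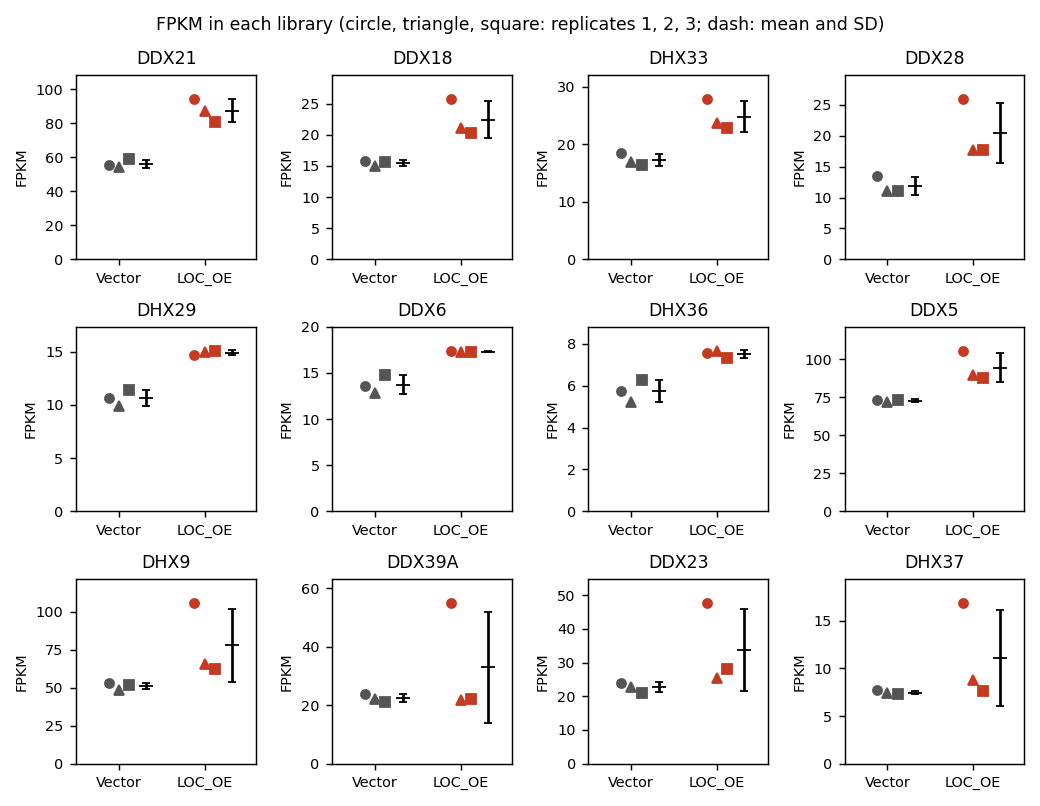
FPKM (y axis, from 0) in each Vector and LOC_OE library (x axis) for the 8 genes that passed and for DHX9, DDX39A, DDX23 and DHX37, with circle, triangle and square for replicates 1, 2 and 3 and a dash with a bar for the mean and SD. DHX29, DDX6 and DHX36 have close LOC_OE libraries, whereas LOC_OE replicate 1 of DDX39A lies at 55.0 and its fellow libraries at 21.8 and 22.2.

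Of 9 spliceosomal helicases, all tested, 0 passed the adjusted p of limma in either direction, against 20.4% of all genes tested. Above 0 lay 8 of the 9 log2 fold changes (88.9%, against 52.0% of all genes), with a median of 0.14. At an equal sum of FPKM, where the median of all genes was -0.18, 3 of the 9 were above 0, and DDX41 and DHX16 fell. DHX15, which disassembles spent spliceosomes, had 26.3, 25.4 and 26.2 FPKM in Vector and 41.0, 32.5 and 31.5 in LOC_OE libraries. The groups did not overlap, and the log2 fold change was 0.41 (SE 0.11, limma adjusted p = 0.0511), with an adjusted p of 0.0338 in voom and of 0.00550 without LOC_OE replicate 1. DDX23, needed as the spliceosome is activated, had 24.0, 22.8 and 21.0 FPKM in Vector and 47.7, 25.4 and 28.2 in LOC_OE libraries. All LOC_OE values were above the Vector values, though replicate 1 was far from the rest, and the log2 fold change was 0.50 (SE 0.23, limma adjusted p = 0.167). DDX46 and DDX42, which act with the SF3 complexes on the branch site, had groups that did not overlap, with log2 fold changes of 0.31 and 0.14. DHX35, DHX38, DHX8, DHX16 and DDX41 overlapped between groups. DDX41, an inherited leukaemia gene, had 17.9, 17.6 and 16.7 FPKM in Vector and 19.2, 15.7 and 14.4 in LOC_OE libraries. Its log2 fold change was -0.089 (limma adjusted p = 0.620), and -0.20 without LOC_OE replicate 1 (adjusted p = 0.0466).

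None of the 4 mRNA export helicases passed, against 20.4% of all genes tested. In none of the 4 did the groups separate, against 45.3% of all genes. DDX39A and DDX39B are near-identical partners of the TREX complex. DDX39A had 23.8, 22.1 and 21.2 FPKM in Vector and 55.0, 21.8 and 22.2 in LOC_OE libraries. A single library was thus high and the other LOC_OE libraries were within the Vector range, with a log2 fold change of 0.41 (95% interval -0.42 to 1.23, limma adjusted p = 0.435) that was -0.020 without it. DDX39B had 16.1, 15.7 and 16.7 FPKM in Vector and 17.3, 16.6 and 17.3 in LOC_OE libraries, a log2 fold change of 0.072 (limma adjusted p = 0.509). Reads of DDX39B are uncertain, since 30.8% of its exon length is shared on the same strand, with ATP6V1G2-DDX39B among the sharing genes. DDX19A and DDX19B, which release mRNA at the nuclear pore, share 23.8% and 15.7% of their exon length with AC012184.2. DDX19A had 3.32, 3.23 and 3.42 FPKM in Vector and 5.60, 3.21 and 3.68 in LOC_OE libraries (log2 fold change 0.23, limma adjusted p = 0.377). DDX19B had 6.65, 6.23 and 5.55 FPKM in Vector and 9.89, 6.27 and 7.25 in LOC_OE libraries (log2 fold change 0.28, limma adjusted p = 0.249). Both were highest in LOC_OE replicate 1 and overlapped between groups.

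Among the RNA sensors, none of the 3 tested was highest in LOC_OE replicate 1. DDX58, which encodes the receptor RIG-I, had 2.89, 2.7 and 2.96 FPKM in Vector and 1.85, 2.65 and 2.66 in LOC_OE libraries. The LOC_OE libraries were all lower, by little in replicates 2 and 3, and the log2 fold change was -0.19 (95% interval -0.49 to 0.10, limma adjusted p = 0.302). DDX60L, a relative of the interferon-induced DDX60, had 1.47, 1.73 and 1.62 FPKM in Vector and 1.82, 2.64 and 2.84 in LOC_OE libraries, with a log2 fold change of 0.38 (limma adjusted p = 0.0972), and of 0.52 without LOC_OE replicate 1 (adjusted p = 0.00822). DDX60 had a log2 fold change of 0.14 (limma adjusted p = 0.436). DHX58, the receptor LGP2, was below the filter, as its Vector libraries held 4, 5 and 0 reads and each LOC_OE library 0.

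Few reads came from the germ line members. DDX4, the Vasa homolog, had 4 reads in 1 Vector library and 0 in the other 5 libraries, DDX25 had at most 3 reads in any library, and DDX53 had 0 in all. For DDX43, a cancer/testis gene, 25, 36 and 20 reads were found in Vector and 4, 16 and 8 in LOC_OE libraries, or 0.516 ± 0.158 and 0.213 ± 0.134 FPKM (SD, n = 3 each). Of the DDX43 exon length, 20.2% overlaps CGAS and OOEP on the opposite strand, and whether reads were counted by strand is not given. The groups of DDX43 did not overlap, and it was below the filter. Where the fit took it in, the limma adjusted p was 0.181 with no filter on FPKM and 0.0690 with voom on the reads, with a log2 fold change of -1.39 in voom. DDX3Y was the other gene below the filter.

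Of the remaining genes, DDX11, a DNA helicase of sister chromatid cohesion, had 10.4, 11.2 and 11.3 FPKM in Vector and 19.0, 12.9 and 13.2 in LOC_OE libraries, with a log2 fold change of 0.40 (limma adjusted p = 0.111). Its reads may be shared with the related pseudogene DDX12P. DHX40 had 9.22, 8.92 and 9.34 FPKM in Vector and 9.36, 13.1 and 12.5 in LOC_OE libraries, with a log2 fold change of 0.31 (limma adjusted p = 0.143), and of 0.44 without LOC_OE replicate 1 (adjusted p = 0.00258). DHX57, DHX32 and DDX59 had log2 fold changes of 0.13, 0.015 and -0.089. DDX59, a gene of ciliary signalling, was at 3.06 FPKM in LOC_OE replicate 1 and at 4.78 to 5.73 in the other 5 libraries.

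LOC_OE replicate 1 was often the highest library for the helicase genes. It was the highest of the 3 LOC_OE libraries for 37 of 49 genes (75.5%, against 45% of all genes tested), among them 14 of the 16 ribosome biogenesis helicases. In 9 genes (18.4%, against 10.7% of all genes) it was above the mean of replicates 2 and 3 by a fold of at least 1.5 on the log2(FPKM + 1) scale, namely DDX39A, DHX37, DDX23, DDX54, DDX51, DHX9, DDX56, DDX49 and DHX30. The median difference from the Vector mean over the 49 genes was 0.46 in LOC_OE replicate 1, 0.19 in replicate 2 and 0.16 in replicate 3 on the log2(FPKM + 1) scale. All 3 medians were thus above 0, and the first was the largest.

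**Figure D3:**
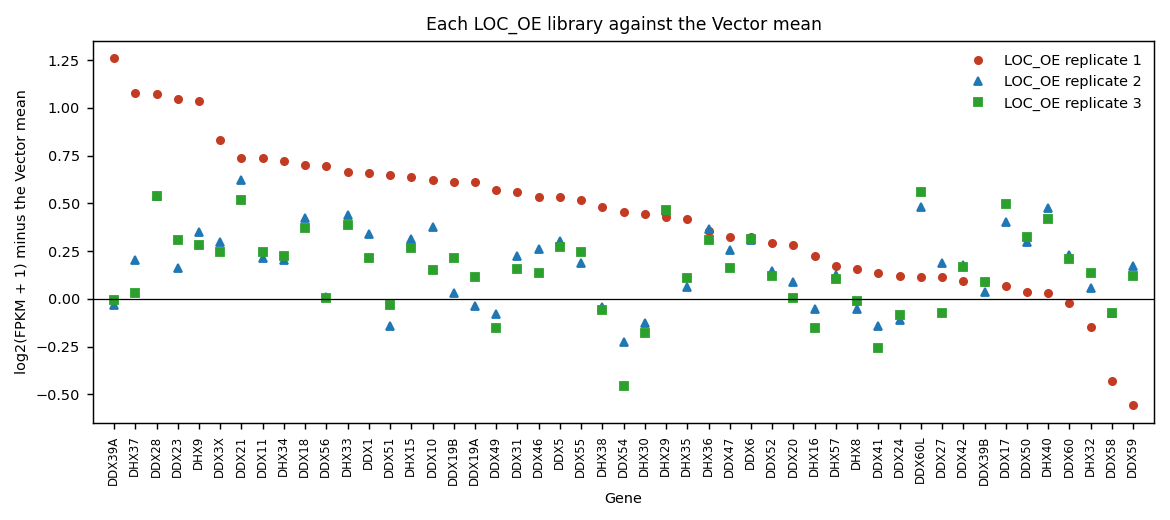
Difference of log2(FPKM + 1) from the Vector mean (y axis) in each of the 3 LOC_OE libraries for the tested helicase genes (x axis). Replicate 1 is the highest LOC_OE library in 37 of 49 genes, while replicates 2 and 3 lie close together with medians of 0.19 and 0.16.

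The gap between LOC_OE replicate 1 and its fellow libraries moved with base composition. Over the 49 genes, the GC content of the longest transcript was 35.2% to 61.7% (median 45.7%), and its correlation with the difference between replicate 1 and the mean of replicates 2 and 3 was 0.62 (Pearson; Spearman 0.60). Over 11296 protein-coding genes tested the same correlations were 0.26 and 0.28. Without LOC_OE replicate 1, GC content and the log2 fold change had a Pearson correlation of -0.53 over the 49 genes and of -0.31 over 11250 protein-coding genes. LOC_OE replicates 2 and 3 enter that fold change and the difference above with opposite signs, so these correlations are not independent. DDX21 and DDX60L, of low GC content, were then among the highest genes, as was the GC-rich DDX28. These are descriptions across genes that share the same libraries, and the part of base composition in the fold changes was not tested.

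**Figure D4:**
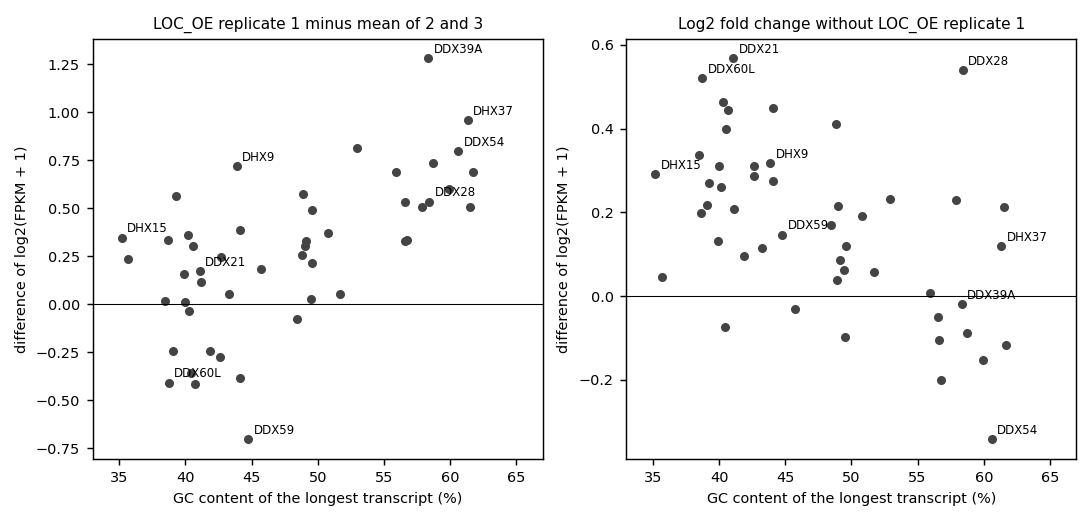
GC content of the longest transcript (x axis, percent) against the difference of log2(FPKM + 1) between LOC_OE replicate 1 and the mean of replicates 2 and 3 (left y axis) and against the log2 fold change without LOC_OE replicate 1 (right y axis), 1 point a gene, n = 49. The left points rise with GC content (Pearson correlation 0.62) and the right points fall (-0.53). Replicates 2 and 3 enter both panels with opposite signs.

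Genes that work with the helicases were counted from lists chosen with results of these data known. Of 30 ribosome biogenesis factors without a helicase domain, 29 were tested, 13 rose and 0 fell, and all 29 had a log2 fold change above 0, with a median of 0.56 (0.40 without LOC_OE replicate 1). Those that rose were 44.8% of the 29, against 10.7% of all genes tested, of which 52.0% were above 0. At an equal sum of FPKM, 9 of them rose, 0 fell and 26 were above 0. The 8 with a fold change of at least 1.5 were UTP14A, NIP7, NCL, NPM1, NOP58, DKC1, NOP14 and WDR43. UTP14A, the activator of DHX37, had 3.94, 4.43 and 4.18 FPKM in Vector and 10.3, 9.43 and 10.8 in LOC_OE libraries, a log2 fold change of 1.11 (SE 0.085, limma adjusted p = 0.00292). Its LOC_OE libraries were close together, unlike those of DHX37. NPM1, the nucleolar chaperone nucleophosmin, had a log2 fold change of 0.86 (limma adjusted p = 0.0103).

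For mRNA export, 11 of 12 listed partners were tested, 5 rose (45.5%, against 10.7% of all genes) and 0 fell (the 5 being CHTOP, NXF1, THOC1, THOC5 and THOC7), with a median of 0.33, and at an equal sum of FPKM NXF1 and THOC7 rose. NXF1, the export receptor, and THOC7, a subunit of the THO complex, had log2 fold changes of 0.69 and 0.66 (limma adjusted p = 0.0237 and 0.00775). Both were past a fold change of 1.5. A difference between these partners and the 4 export helicases, of which none passed, was not tested. Among 7 cofactors of the helicase eIF4A, EIF4E and EIF4G2 rose (28.6%, against 10.7% of all genes), with log2 fold changes of 0.68 and 1.00. Of 11 P-body genes that work with DDX6, CNOT1, EIF4ENIF1 and PATL1 rose (27.3%, against 10.7% of all genes). LSM14B fell (9.09%, against 9.74% of all genes). The median of the 11 was -0.066, whereas at an equal sum of FPKM 0 rose and 4 fell. In the Microprocessor, DROSHA rose by a log2 fold change of 0.50, a call lost at an equal sum of FPKM, and DGCR8 did not pass. Of 8 SMN complex genes 1 rose (12.5%, near the 10.7% of all genes), STRAP, with a log2 fold change of 0.65.

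Helicases outside the DDX and DHX names were counted in the same way, beside 10.7% of all genes that rose and 9.74% that fell. Of 13 further DExD/H-box and superfamily 2 genes, 11 were tested, 1 rose (SUPV3L1) and 2 fell (EIF4A2 and IFIH1), with a median of 0.027, and at an equal sum of FPKM 0 rose and the same 2 fell. IFIH1, which encodes the RIG-I-like sensor of long double-stranded RNA, had 5.26, 4.23 and 4.84 FPKM in Vector and 1.32, 1.93 and 1.71 in LOC_OE libraries. Every LOC_OE library was below every Vector library, and the log2 fold change was -1.13 (SE 0.12, limma adjusted p = 0.00555). Of 7 superfamily 1 RNA helicases, AQR rose and HELZ2 fell, the latter with a log2 fold change of -0.94. Of 20 G-patch genes 0 rose and 3 fell (15.0%, against 9.74% of all genes), namely GPATCH2, GPKOW and ZGPAT. At an equal sum of FPKM 6 fell, with no share of all genes computed for that scaling. Of the 3, GPKOW was past a fold change of 1.5 with a log2 fold change of -0.71. Of 8 genes of the RIG-I pathway TBK1 rose and IRF7 fell, and of 17 interferon-stimulated genes, 11 tested, USP18 rose and IFI6 fell, the latter by 0.61 on the log2 scale. At an equal sum of FPKM, AQR, TBK1 and USP18 did not pass, while HELZ2, IRF7 and IFI6 still fell.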

How the data were processed

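RNA of 6 RKO libraries, 3 Vector and 3 LOC_OE, was sequenced as paired ends. The authors deposited FPKM for 58735 genes in 1 table, all matched to GENCODE version 29. The submitters' processing notes name HISAT2 2.0.4, StringTie 1.3.0 and hg38, and the counting settings are not given in the sources used here. FPKM multiplied by merged exon length gave whole reads for 100% of values. The table held 0 unused columns of values. limma 3.58.1 in R 4.3.3 fitted log2(FPKM + 1), using lmFit and eBayes with a trend, for genes of at least 0.5 FPKM in at least 3 libraries, and Benjamini-Hochberg adjustment ran over all 16061 genes. The step was tested on simulated data. Motifs, GC content and exon overlaps were computed in Python 3.11.15 with pandas 2.3.3, and figures with matplotlib 3.10.9.

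Named genes were those past the adjusted p of 0.05, the 5 highest in mean FPKM, similar pairs, RIG-I-like receptors, DDX3X, DDX6, DHX9, DHX15, DHX36 and genes below the filter. Others described here, such as DHX37, DDX23 and DDX54, were chosen after their values were seen. The members and lists were chosen with earlier results of these data known. Alternatives were a pseudocount of 0.1, no filter, an equal sum of FPKM, limma voom on reads of genes with at least 10 reads in at least 3 libraries, the replicate block and leaving out each library. Read numbers cover counting error only.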

Additional observations from a re-analysis of the deposited data

How the results depend on the processing

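With a pseudocount of 0.1 the same 8 helicase genes passed the adjusted p of limma, and with voom on the recovered reads they passed together with DDX1 and DHX15. Without the filter on low FPKM 5 passed, and 1 with a fold change of at least 1.5. With libraries at an equal sum of FPKM, 7 passed, 4 of them higher, 0 with that fold change, the median log2 fold change was 0.062, and that of DHX16 turned from 0.0051 to -0.25. When 1 library was left out, between 0 and 20 genes passed, and 0 to 2 with the fold change of at least 1.5. Without a Vector library the count was 0, and without LOC_OE replicate 1 it was 20. Shares of all genes that passed were computed for no alternative except the fit without LOC_OE replicate 1. With the replicate number as a block, 5 genes passed (DDX18, DDX21, DDX28, DHX29 and DHX33). Deviations of libraries with the same number correlated at 0.111, -0.0338 and 0.117, so that the numbers were not taken to pair them. The cause of these differences was not tested. DDX47 and DDX43 had at most 67 and 36 reads in any library.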
